A study of Mus musculus with 48 samples.

Results

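Gene expression in the early dark phase, when mice become active, was set against the early light phase, when they begin to rest, in 4 brain tissues of the dopamine system. The comparison took every array of ZT15 and of ZT03 by its label, which gave 16 of the 48 arrays of the series: 8 at ZT15 and 8 at ZT03, with 2 of each time in the ventral midbrain (SN/VTA, that is the substantia nigra and the neighbouring ventral tegmental area, where dopamine neurons lie), the prefrontal cortex (PFC), the striatum (STR, a main target of those neurons) and the habenula (HAB, an epithalamic nucleus that acts on them). ZT, Zeitgeber time, counts hours from lights on in a cycle of 24 h, so ZT15 lies 3 h into darkness, ZT03 lies 3 h into light and the times are 12 h apart. All animals were male C57BL/6 mice on a light-dark cycle with no other treatment or genotype, and each array measured RNA pooled from 3 mice on an Affymetrix Mouse Gene 2.0 ST array. Replicate 1 came from the first cycle of collection (hour 15 for ZT15 and hour 27 for ZT03) and replicate 2 from the second (hours 39 and 51). The labels do not say whether the 4 tissues of a collection came from the same mice. If they did, the 8 arrays of a time hold 2 independent collections, and p-values over 16 arrays measure the spread between arrays and not wholly that between collections.

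The circadian clock of mammalian cells is a loop of transcription. BMAL1 (the product of Arntl) and CLOCK bind E-boxes and switch on the Per and Cry genes, whose proteins block that activity, and the REV-ERB receptors (Nr1d1 and Nr1d2), which repress Arntl through RORE elements. Output factors such as DBP carry the rhythm further through D-boxes. Daily rises in body temperature, feeding, waking activity and glucocorticoids add rhythms of heat shock, endoplasmic reticulum chaperone, immediate early and glucocorticoid-responsive genes.

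The deposited levels are on a log2 scale, so a difference of 1 is a doubling. The table held 41345 rows, of which 17274 genes with 1 symbol each and a mean level of at least 5.05 were tested. The medians of the 16 arrays lay between 5.85 and 6.06, and replicate arrays correlated at 0.988 to 0.994 across genes. The dissections carried the markers of their labels: Th, the enzyme that makes dopamine's precursor, was at 10.68 to 11.14 on the SN/VTA arrays and at 6.19 to 7.18 elsewhere. The cortical factor Fezf2 was at 9.23 to 9.38 in PFC and at most 6.83 elsewhere, the dopamine receptor gene Drd1 at 9.42 to 9.56 in STR and at most 6.92 elsewhere, and the nicotinic receptor gene Chrna3 at 10.22 to 10.59 in HAB and at most 8.34 elsewhere. Arrays were read singly for the choroid plexus and thalamus lists, and those that stood apart were all at ZT03. In HAB ZT03 replicate 2 the summed level of 8 choroid plexus genes was 11.15 against 13.54 in HAB ZT03 replicate 1 and 13.50 and 13.70 at HAB ZT15, and that of 9 thalamus genes was 12.11 against 12.68, 12.70 and 12.73. The choroid plexus sum was also low in SN/VTA ZT03 replicate 2 (10.30 against 11.69 to 12.26 on the other SN/VTA arrays) and high in STR ZT03 replicate 1 (12.07 against 9.63 to 9.74). The main counts are therefore also given without each of these arrays, and the part of these tissues in the results was not tested.

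Across the 4 tissues, 62 genes were higher at ZT15 and 25 were lower (limma, 8 against 8 arrays with tissue as a term, Benjamini-Hochberg adjusted p under 0.05). These are 0.359% and 0.145% of the 17274 genes, or 87 genes and 0.504% together; at an unadjusted p under 0.05 the count was 1898 genes (11.0%). The differences were small. Among the 87 genes they ran from 0.21 to 0.84 in size, with a median of 0.32, which as fold changes is 1.16 to 1.78, and 6 genes passed 1.5-fold. The median over all genes was 0.00. The heat shock gene Hspa1b and the clock genes Dbp and Ciart had the largest positive differences, and the glial genes Fabp7 and Opalin and the linker histone gene H1f2 the largest negative ones; Arntl was the clock gene among the lower genes. Without HAB ZT03 replicate 2 the counts were 50 higher and 27 lower, without SN/VTA ZT03 replicate 2 they were 51 and 24, and without STR ZT03 replicate 1 they were 48 and 21. The lower count was 15 without SN/VTA ZT15 replicate 1 and 16 without SN/VTA ZT03 replicate 1 or HAB ZT03 replicate 1. With the replicate number within tissue as a block, which pairs arrays of 1 cycle, they were 36 and 11, and 44 of those 47 were among the 87. On means over the 4 tissues of each collection, 2 against 2, the genes called were Hspa1b, Dbp, Fabp7 and Opalin; with all 6 times in that model they were Dbp, Ciart, Per3, Per1, Nr1d2 and Fabp7.

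The core clock list held 22 tested genes. Dbp, Ciart, Per3, Per1, Nr1d2 and Cry1 were higher at ZT15, Arntl was lower, and the other 15 did not pass the test. Over all tested genes 0.359% were called higher and 0.145% lower. The median difference of the list was 0.19, against 0.00 over all genes. Promoters were searched for the 6 clock genes with the largest called differences and for Fabp7 and Hspa1b, which had the largest in other lists, and those with a match are shown, to give the letters of the elements named above. Each runs from 250 bases before to 50 bases after the transcript start, in RefSeq's sequence of build GRCm38.p6, 5′ to 3′ on the gene's strand; where RefSeq had several starts, the one with most matches was taken. Capitals mark an E-box (CACGTG), a D-box (TTANGTAA), a RORE core (TAGGTCA), a cAMP response element (TGACGTCA) or the core of a heat shock element (GAANNTTC), on either strand.
Ciart (chr3:95882179-95882478, minus strand): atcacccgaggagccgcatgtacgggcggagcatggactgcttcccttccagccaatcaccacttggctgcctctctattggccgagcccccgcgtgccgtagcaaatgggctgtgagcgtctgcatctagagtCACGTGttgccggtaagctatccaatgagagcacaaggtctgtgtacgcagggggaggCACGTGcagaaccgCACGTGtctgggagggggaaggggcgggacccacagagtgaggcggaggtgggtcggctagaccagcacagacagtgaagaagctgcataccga
Per1 (chr11:69098699-69098998, plus strand): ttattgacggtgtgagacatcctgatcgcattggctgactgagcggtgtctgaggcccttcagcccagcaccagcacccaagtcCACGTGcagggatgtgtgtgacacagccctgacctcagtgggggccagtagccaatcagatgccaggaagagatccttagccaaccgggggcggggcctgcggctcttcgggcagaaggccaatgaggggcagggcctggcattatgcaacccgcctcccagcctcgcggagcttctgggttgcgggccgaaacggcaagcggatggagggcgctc
Per3 (chr4:151044616-151044915, minus strand): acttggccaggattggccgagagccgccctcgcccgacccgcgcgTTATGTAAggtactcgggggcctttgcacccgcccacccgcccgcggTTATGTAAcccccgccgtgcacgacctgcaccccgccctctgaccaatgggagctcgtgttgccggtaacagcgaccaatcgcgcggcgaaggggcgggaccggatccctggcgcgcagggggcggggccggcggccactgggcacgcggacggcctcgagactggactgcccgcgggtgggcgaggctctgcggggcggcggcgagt
Arntl (chr7:113207261-113207560, plus strand): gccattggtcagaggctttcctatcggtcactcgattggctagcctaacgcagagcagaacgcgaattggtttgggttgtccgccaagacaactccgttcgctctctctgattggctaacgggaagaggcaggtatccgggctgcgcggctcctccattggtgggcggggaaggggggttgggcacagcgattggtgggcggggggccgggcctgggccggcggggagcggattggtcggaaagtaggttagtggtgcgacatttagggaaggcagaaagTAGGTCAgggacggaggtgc
Fabp7 (chr10:57784673-57784972, plus strand): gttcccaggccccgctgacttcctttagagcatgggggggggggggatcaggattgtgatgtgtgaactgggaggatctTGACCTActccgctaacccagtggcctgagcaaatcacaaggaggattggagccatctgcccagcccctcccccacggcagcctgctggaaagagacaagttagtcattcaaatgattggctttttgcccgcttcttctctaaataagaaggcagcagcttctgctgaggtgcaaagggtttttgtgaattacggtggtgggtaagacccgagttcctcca
Hspa1b (chr17:34959189-34959488, minus strand): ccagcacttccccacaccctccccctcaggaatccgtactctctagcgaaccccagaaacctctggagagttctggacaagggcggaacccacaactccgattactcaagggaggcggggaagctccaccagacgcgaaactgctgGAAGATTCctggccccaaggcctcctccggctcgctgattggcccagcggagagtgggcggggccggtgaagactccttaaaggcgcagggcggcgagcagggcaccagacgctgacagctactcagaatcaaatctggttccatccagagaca

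Ciart held 3 E-boxes in this window, Per1 held 1, Per3 held 2 D-boxes, Arntl and Fabp7 each held 1 RORE core, that of Fabp7 on the opposite strand, and Hspa1b held 1 heat shock core. No overlap between matches occurred. The windows of Dbp and Nr1d2 held none of the 5 motifs. Cry1, outside those 6 clock genes, also held an E-box, and its promoter is not shown. Of the 87 genes, 71 matched a RefSeq promoter. An E-box was present for 8 of 51 higher genes (15.7%), 2 of 20 lower genes (10%) and 1423 of the 13374 tested genes with a promoter (10.6%). A D-box was present for 5 of 51 higher genes (9.8%: Ak4, Baz1b, Coq10b, Gkn3 and Per3, named after their values were seen), no lower gene and 1.95% of all. The RORE core was found for 2 of 20 lower genes (10%; Arntl and Fabp7), 1 of 51 higher genes (1.96%) and 2.47% of all. A cAMP response element was present for 1 of 51 higher genes (1.96%), 3 of 20 lower genes (15%) and 3.04% of all, and a heat shock core for 2 of 51 (3.92%), 1 of 20 (5%) and 7.24%. A match describes the letters and was not tested as a binding site.

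The output factor Dbp, a D-box binding protein, was at 9.21 and 8.93 in SN/VTA at ZT15 (replicates 1 and 2) against 8.68 and 8.45 at ZT03. In PFC it was at 10.07 and 9.92 against 8.80 and 8.88, in STR at 9.46 and 9.30 against 8.81 and 8.97, and in HAB at 9.16 and 9.28 against 8.59 and 8.67. Every ZT15 array lay above both ZT03 arrays of its tissue, with the widest gap in PFC. The shared difference was 0.68 ± 0.09 (SE; 8 against 8 arrays), 1.61-fold, with adjusted p = 0.00134.

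Ciart encodes a repressor of BMAL1 and CLOCK. Its levels at ZT15 were 8.0 and 7.81 in SN/VTA, 7.81 and 7.74 in PFC, 8.36 and 8.33 in STR and 8.18 and 8.19 in HAB. At ZT03 they were 7.49 and 7.47, 7.05 and 7.33, 7.41 and 7.80, and 7.34 and 7.29 in the same order. The times did not overlap in any tissue, and the difference was 0.65 ± 0.07 (1.57-fold, adjusted p = 2.74e-04).

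Per3 and Per1, the period genes tested here, were both higher at ZT15. Per3 was at 7.74 and 7.66 in SN/VTA, 8.17 and 8.13 in PFC, 8.08 and 8.15 in STR and 8.36 and 8.30 in HAB at ZT15, against 7.32 and 7.19, 7.59 and 7.53, 7.63 and 7.75, and 7.68 and 7.84 at ZT03. Its difference of 0.51 ± 0.05 had an adjusted p of 5.69e-05, the lowest of all genes together with Fabp7, and lay between 0.42 and 0.58 in each tissue. Per1 was at 8.97 and 8.82, 9.47 and 9.25, 9.62 and 9.58, and 9.15 and 9.02 at ZT15 against 8.20 and 8.34, 8.66 and 8.91, 9.15 and 9.07, and 8.83 and 8.86 at ZT03, in the same order of tissues. The difference was 0.49 ± 0.06 (adjusted p = 0.00134), with 0.63 in SN/VTA and 0.25 in HAB at the ends, and no tissue overlapped. Per2 was not tested here.

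Cry1, a partner of the period proteins in repression, had the smallest called difference of the list, 0.36 ± 0.07 (adjusted p = 0.0196). It was at 7.10 to 7.55 on the ZT15 arrays and 6.57 to 7.25 on the ZT03 arrays and did not overlap within a tissue; with the replicate block its adjusted p was 0.0632. Its relative Cry2 differed by 0.24 ± 0.06 (adjusted p = 0.116). The REV-ERB pair did not show the same pattern. Nr1d2 was higher at ZT15 by 0.48 ± 0.06 (adjusted p = 7.44e-04), without overlap in any tissue. Nr1d1 had a mean of 9.37 at ZT15 and 9.44 at ZT03, a difference of -0.06 ± 0.07 (adjusted p = 0.819), with 0.31 in PFC and values from -0.24 to -0.13 in the other tissues. The difference between these genes was not tested.

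Arntl, on the opposite limb of the loop, was lower at ZT15. It was at 8.16 and 8.08 in SN/VTA, 8.82 and 8.83 in PFC, 8.26 and 8.25 in STR and 8.29 and 8.34 in HAB at ZT15. At ZT03 it was at 8.48 and 8.35, 9.47 and 9.33, 8.70 and 8.70, and 8.77 and 8.78. Every ZT15 array was below every ZT03 array of its tissue, and the difference was -0.44 ± 0.05 (adjusted p = 2.48e-04). Clock, whose product pairs with BMAL1, had a mean of 10.20 at ZT15 and 10.23 at ZT03 (-0.02 ± 0.04, adjusted p = 0.900), and Npas2, which can take its place, differed by -0.05 ± 0.05. Among the output factors that did not pass, Tef differed by 0.24 (adjusted p = 0.0972), Hlf by 0.20 (0.184) and the D-box repressor gene Nfil3 by -0.15 (0.341). Bhlhe41 and Bhlhe40, repressors that also bind E-boxes, differed by 0.28 (adjusted p = 0.104) and 0.21 (0.287).

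**Figure D1:**
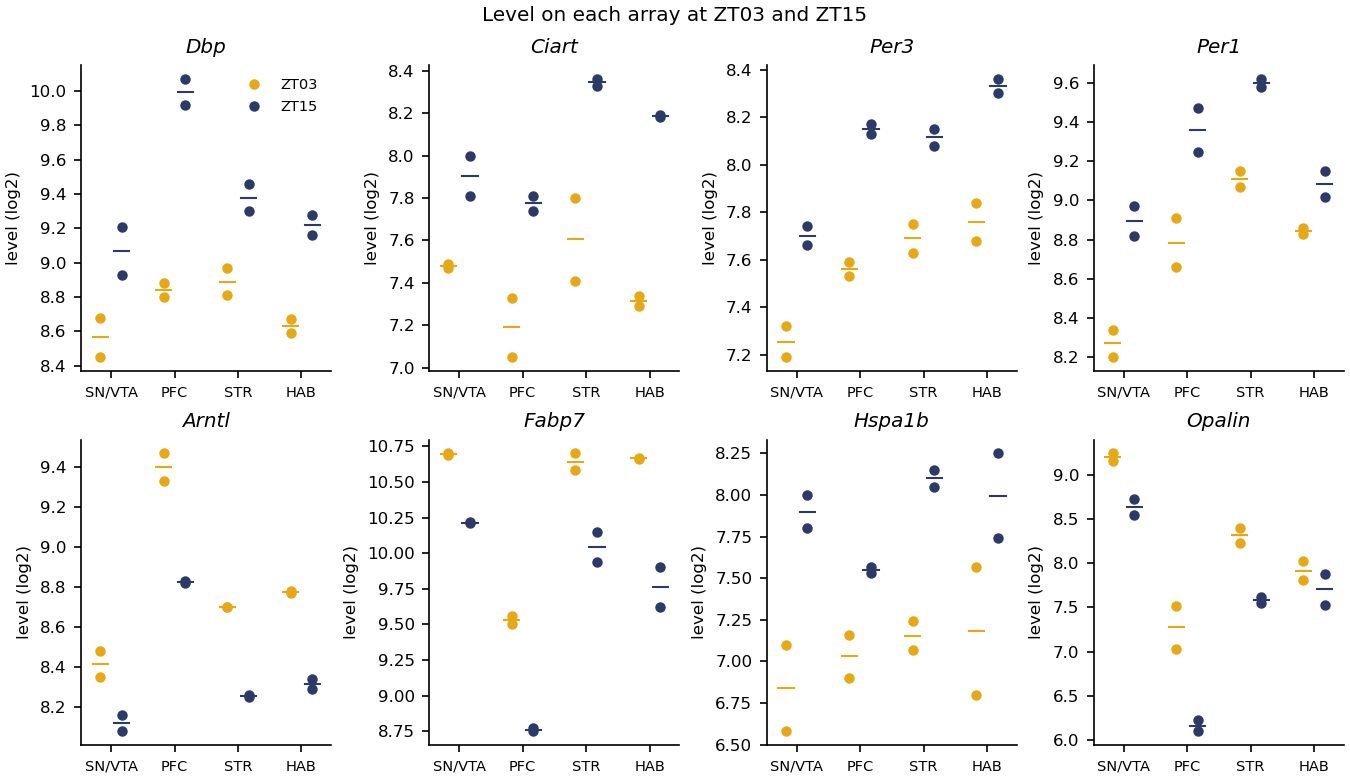
Level (log2, each panel with its own axis that does not start at 0) of 8 genes on each of the 16 arrays, by tissue; a point is an array, a bar the mean of 2, ZT03 in yellow and ZT15 in dark blue. Dbp, Ciart, Per3, Per1 and Hspa1b lie higher at ZT15 and Arntl and Fabp7 lower with no overlap in any tissue, while Opalin overlaps in HAB.

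Fabp7 encodes the brain fatty acid binding protein of astrocytes and neural progenitors. It was at 10.21 and 10.22 in SN/VTA, 8.77 and 8.75 in PFC, 9.94 and 10.15 in STR and 9.62 and 9.90 in HAB at ZT15. At ZT03 it was at 10.69 and 10.70, 9.56 and 9.50, 10.58 and 10.70, and 10.67 and 10.66. No tissue overlapped, with differences from -0.91 in HAB to -0.48 in SN/VTA, and the shared difference was -0.69 ± 0.06 (adjusted p = 5.69e-05). Of the 12 astrocyte markers tested it was the only one called, where 0.504% of all genes were called and 0.145% were called lower. Gfap differed by -0.21 (limma adjusted p = 0.267), Gjb6 by 0.27 (0.0766), and the list's median was -0.00. The summed level of the astrocyte list overlapped between the times in SN/VTA, PFC and STR, and in HAB was 13.83 to 13.84 at ZT15 and 13.90 to 13.96 at ZT03. In bulk tissue, fewer cells of a type and less RNA per cell cannot be told apart.

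Opalin, a membrane protein of myelinating oligodendrocytes, was at 8.72 and 8.54 in SN/VTA, 6.23 and 6.10 in PFC, 7.62 and 7.55 in STR and 7.53 and 7.88 in HAB at ZT15. At ZT03 it was at 9.24 and 9.15, 7.03 and 7.52, 8.40 and 8.23, and 8.02 and 7.81. It was lower at ZT15 in SN/VTA, PFC and STR and overlapped in HAB, with a shared difference of -0.66 ± 0.11 (adjusted p = 0.00985). It was the only 1 of 10 oligodendrocyte markers called, where 0.504% of all genes were called and 0.145% were called lower. The list's median was -0.04. The summed level of the 10 markers was not tested, and its direction was not alike in the tissues. At ZT15 it was lower in PFC (12.26 to 12.36 against 12.49 to 12.59) and STR (12.75 to 12.83 against 12.90 to 12.92). It was higher in HAB (13.14 to 13.29 against 12.88 to 13.00) and overlapping in SN/VTA (13.91 to 14.01 against 13.93 to 13.97). With 2 arrays against 2, 16.2% to 20.6% of all single genes had no overlap in a given direction in a tissue. The part of myelin content in the difference of Opalin was not tested.

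Heat shock proteins refold damaged proteins. Of 20 tested, Hspa1b and Dnajb1 were higher at ZT15, where 0.359% of all genes were, and the median difference was 0.06. Hspa1b, an inducible HSP70, was at 7.80 and 8.0 in SN/VTA, 7.53 and 7.57 in PFC, 8.15 and 8.05 in STR and 8.25 and 7.74 in HAB at ZT15, against 7.10 and 6.58, 6.90 and 7.16, 7.07 and 7.24, and 6.80 and 7.57 at ZT03. The difference of 0.84 ± 0.12 was the largest of the 87 genes (1.78-fold, adjusted p = 0.00266), and the narrowest gap was in HAB. Its neighbouring copy Hspa1a, nearly identical in sequence, differed by 0.40 ± 0.11 (adjusted p = 0.144), and probes of these genes may share signal. Dnajb1, an HSP40 co-chaperone, differed by 0.33 ± 0.05 (adjusted p = 0.00519) without overlap in any tissue.

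Of 21 tested chaperones of the endoplasmic reticulum and genes of the unfolded protein response, 19 had a positive difference. The median was 0.12 against 0.00 over all genes. Among the 21, 5 were called higher and 0 lower, where 0.359% and 0.145% of all genes were. The 5 were Sdf2l1 (0.45 ± 0.08), Creld2 (0.31 ± 0.05), Hspa5, which encodes the main chaperone BiP (0.28 ± 0.05), Xbp1, the transcription factor of the response (0.28 ± 0.05), and Herpud1, a component of degradation, chosen after its value was seen (0.28 ± 0.05). Their adjusted p-values lay between 0.00845 for Xbp1 and 0.0271 for Herpud1. HAB held the largest difference of each: Sdf2l1 was at 8.74 and 8.83 in HAB at ZT15 against 7.99 and 8.0 at ZT03, a difference of 0.79, compared with 0.21 to 0.40 in the other tissues. Whether HAB differed from the others was part of the test between tissues, where Sdf2l1 had an adjusted p of 0.736. With the replicate block, Sdf2l1 (adjusted p = 0.0530), Hspa5 (0.100) and Herpud1 (0.105) no longer passed.

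Of 18 glucocorticoid-responsive genes, Per1 and Tsc22d3 were higher at ZT15, where 0.359% of all genes were. Per1 is also in the core clock list and was counted there. A positive difference was seen for 17, with a median of 0.12 against 0.00 over all genes. Tsc22d3 encodes GILZ, a direct target of the glucocorticoid receptor. It was at 6.89 to 7.74 on the ZT15 arrays and 6.44 to 7.43 on the ZT03 arrays, did not overlap within a tissue and differed by 0.37 ± 0.06 (adjusted p = 0.0103). Plin4 and Sult1a1 differed by 0.38 (adjusted p = 0.0525) and 0.30 (0.102). The receptor genes Nr3c1 and Nr3c2 differed by 0.09 (adjusted p = 0.605) and -0.15 (0.490). Of 4 cold-inducible RNA-binding protein genes 2 were tested. Srsf5, a splicing factor, was lower at ZT15 by 0.29 on the log2 scale (-0.29 ± 0.05, adjusted p = 0.0103; 0.0530 with the replicate block), and Cirbp differed by -0.10 ± 0.05 (adjusted p = 0.458).

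Immediate early genes respond within minutes to neuronal activity. Of 19 tested, Fos and Dusp1 were higher at ZT15 and none was lower, where 0.359% and 0.145% of all genes were. The median difference was 0.11. Fos, a subunit of AP-1, was at 6.55 and 6.50 in SN/VTA, 7.39 and 7.25 in PFC, 6.14 and 6.56 in STR and 6.02 and 6.30 in HAB at ZT15, against 6.20 and 6.20, 6.71 and 6.78, 6.08 and 6.12, and 5.80 and 6.06 at ZT03. It overlapped in HAB, and the difference was 0.34 ± 0.07 (adjusted p = 0.0397; 0.0530 with the replicate block). Dusp1, a phosphatase of MAP kinases, differed by 0.27 ± 0.06 (adjusted p = 0.0428; 0.0651 with the block). The list's median was 0.32 in PFC, 0.27 in STR, 0.08 in SN/VTA and -0.05 in HAB. Fos and Dusp1 lost the call in 23 and 26 of 34 alternative settings.

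Egr1, Arc and Nr4a1 passed within PFC but not across the tissues. The calls within PFC did not hold with the replicate block (adjusted p = 0.135, 0.177 and 0.135), without PFC ZT15 replicate 1 (0.184, 0.195 and 0.184) or without PFC ZT03 replicate 2 (0.0801, 0.0801 and 0.0853). Egr1, an activity-induced transcription factor, was at 9.62 and 9.40 in PFC at ZT15 against 8.48 and 8.54 at ZT03, a difference of 1.00 ± 0.12 (adjusted p = 0.0168). In STR it was at 8.99 and 8.98 against 8.65 and 8.44, in SN/VTA at 7.44 and 7.55 against 7.16 and 7.30, and in HAB, where the times overlapped, at 7.49 and 7.34 against 7.44 and 7.75. Arc, a synaptic protein, was at 10.18 and 10.29 in PFC against 9.10 and 9.44 (0.97 ± 0.15, adjusted p = 0.0426), and differed by 0.39 in STR, 0.01 in SN/VTA and -0.02 in HAB. Nr4a1, an orphan nuclear receptor outside the naming rule and chosen after its values were seen, differed by 0.89 in PFC (adjusted p = 0.0296), 0.66 in STR, 0.20 in SN/VTA and -0.06 in HAB. In the test between tissues these genes had unadjusted p-values of 1.26e-04, 0.00165 and 5.50e-04, but adjusted values of 0.617, 0.622 and 0.617, so a difference between PFC and the other tissues was not shown.

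**Figure D2:**
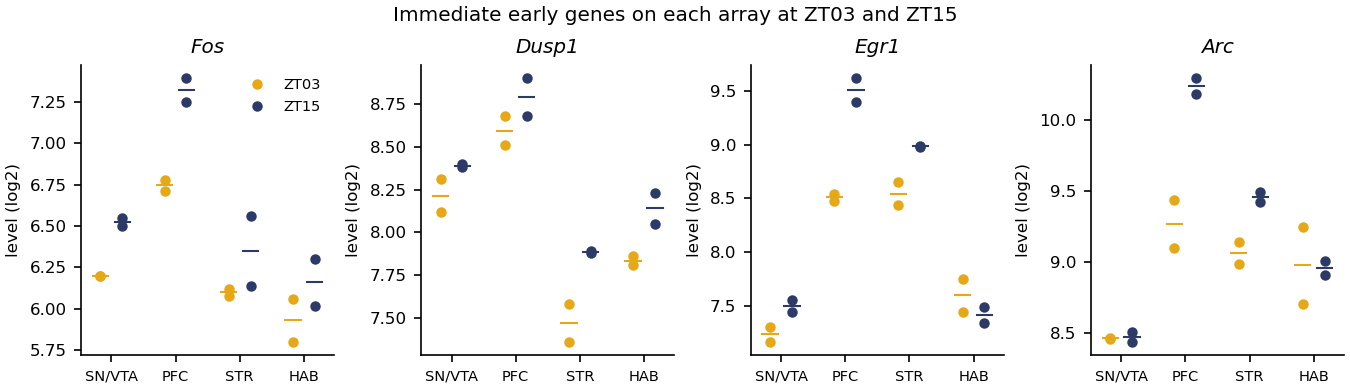
Level (log2, axes that do not start at 0) of 4 immediate early genes on each of the 16 arrays, by tissue; a point is an array, a bar the mean of 2, ZT03 in yellow and ZT15 in dark blue. Egr1 and Arc are about 1 log2 unit higher at ZT15 in PFC and overlap in HAB, as Arc does in SN/VTA. Fos is highest in PFC at both times.

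The other genes with the largest positive differences had varied functions. Fmo2, a flavin monooxygenase, was at 5.70 to 6.17 on the ZT15 arrays and 5.01 to 5.54 on the ZT03 arrays (0.63 ± 0.08, limma adjusted p = 0.00193). Its ZT03 values lay near the filter level of 5.05, and without detection calls it is not known whether they were above background. Etnppl, an enzyme of phosphoethanolamine breakdown that is found in astrocytes, differed by 0.50 ± 0.08 (adjusted p = 0.0102). Hif3a, a subunit of the hypoxia-inducible factors, differed by 0.48 ± 0.08 (adjusted p = 0.0102), with 0.68 in SN/VTA and 0.17 in PFC. Gkn3, a marker of arterial endothelium in the mouse brain, was at 5.96 to 7.0 at ZT15 and 5.65 to 6.55 at ZT03 without overlap in any tissue (0.49 ± 0.05, adjusted p = 3.26e-04). Cdh19, a cadherin, differed by 0.51 ± 0.10 (adjusted p = 0.0250), with 0.88 in HAB and 0.21 in SN/VTA, and lost the call in 17 of 34 settings. Of 10 endothelial markers 1 was called, where 0.504% of all genes were. It was Mfsd2a, the lipid transporter of the blood-brain barrier, higher by 0.29 ± 0.05 (limma adjusted p = 0.0188, and 0.0532 with the replicate block). The list's median was -0.04.

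The other genes with the largest negative differences were equally varied. H1f2, a linker histone, differed by -0.52 ± 0.08 (adjusted p = 0.00467) and overlapped between the times in HAB. Ccnd2, a cyclin, was the called member of the same cell cycle list on the other side (0.39 ± 0.07, adjusted p = 0.0116). Mcam, an adhesion molecule of endothelium and pericytes, was at 6.78 to 8.01 at ZT15 and 7.35 to 8.51 at ZT03 without overlap in any tissue (-0.41 ± 0.06, adjusted p = 0.00581). Vtn, which encodes vitronectin, differed by -0.30 ± 0.06 (adjusted p = 0.0185). Id2, an inhibitor of helix-loop-helix factors, differed by -0.31 ± 0.05 (adjusted p = 0.0121; 0.0530 with the replicate block), with -0.08 in PFC. Mmp14, a membrane metalloprotease, differed by -0.36 ± 0.07 (adjusted p = 0.0397; 0.104 with the block), with -0.71 in SN/VTA and -0.08 in STR, and lost the call in 23 of 34 settings. Gbp9, a guanylate-binding GTPase, and Tmem44, a membrane protein, differed by -0.45 ± 0.08 and -0.36 ± 0.07 (limma adjusted p = 0.0154 for both, and 0.0733 and 0.0651 with the block). Gbp9 was as low as 5.08 (STR ZT15 replicate 1), near the filter level of 5.05, and had no detection call.

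Genes of dopamine handling did not pass. Of 20 genes that make dopamine or mark the neurons that do, 16 of dopamine receptors and striatal signalling and 4 of monoamine breakdown, 0 were called with limma, and 2, 1 and 1 had an unadjusted p under 0.05. Over all tested genes 0.504% were called and 11.0% had an unadjusted p under 0.05. In lists this short, 0 calls lie near that share and do not set these genes apart. In SN/VTA, however, the summed level of the dopamine neuron list was 13.64 to 13.70 at ZT15 and 13.96 to 13.98 at ZT03, with a median difference of -0.23, and Th was at 10.68 and 10.72 against 11.14 and 11.13. The thalamus list was higher there at ZT15 (12.74 to 12.77 against 12.46 to 12.54). The part of the dissection in these values was not tested. No gene was called with limma in the lists of habenula neurons (15 tested, 2 at an unadjusted p under 0.05), cholesterol synthesis (18 and 1), microglia (11 and 3), respiratory chain (17 and 0) and cytosolic ribosome (13 and 0). The same held for synaptic activity and plasticity (24 tested, 7 at an unadjusted p under 0.05), feeding and insulin signalling (17 and 5), cortical projection neurons (12 and 2), inhibitory neurons (10 and 0), oligodendrocyte precursors (10 and 1), ependymal cells (4 and 1), choroid plexus (8 and 0), thalamus (9 and 1), hippocampus (8 and 2), blood (1 and 0) and the steroid receptors (3 and 0). These lists were not alike in their unadjusted counts. Synaptic activity (7 of 24), feeding (5 of 17) and microglia (3 of 11) were among those above the 11.0% of all genes. Respiratory chain (0 of 17) and cytosolic ribosome (0 of 13) were among those below it. Summed levels of some of these lists did not overlap between the times in a tissue, and no sum was tested. With 2 arrays against 2, this is common: 16.2% to 20.6% of all single genes had no overlap in a given direction in a tissue. The oligodendrocyte precursor list was lower at ZT15 in SN/VTA and STR, higher in HAB and overlapped in PFC. The habenula list was lower in SN/VTA and PFC and overlapped in STR and HAB. The hippocampus list was lower at ZT15 in HAB (11.68 to 11.97 against 12.05 to 12.30) and SN/VTA but higher in PFC and STR. The microglia list was lower in SN/VTA, STR and HAB and overlapped in PFC. The cortical list was lower in HAB, higher in SN/VTA and PFC and overlapped in STR. The thalamus list was also higher in HAB and lower in STR. The part of dissection in these sums was not tested.

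Agreement among the tissues was read first from the signs. All 87 genes had the same sign in the 4 tissues, and 55 of the 62 higher and 18 of the 25 lower genes had no overlap between the times in any tissue. The fit had used these arrays, and over all 17274 genes 128 (0.741%) and 59 (0.342%) had no overlap in any tissue in the same directions. Genes called in 3 tissues were then read in the tissue left out, on arrays that had not chosen them. Those arrays came from the same collection hours, and perhaps the same mice, so they are not shown to be independent of the others. All 15 genes called higher without SN/VTA were higher in SN/VTA with no overlap, where 18.0% of all genes had such a pattern, and both genes called lower were lower with no overlap (18.1% of all genes). Of 29 genes called higher without PFC, 26 were higher in PFC and 23 without overlap (79.3% against 20.6% of all genes), and of 20 called lower, 15 were lower and 10 without overlap (50% against 16.2%). In STR, 22 of 22 were higher and 20 without overlap (90.9% against 17% of all genes), and 6 of 7 were lower and 5 without overlap (71.4% against 17.6%). In HAB, 28 of 34 were higher and 24 without overlap (70.6% against 19.8%), and 9 of 17 were lower and 7 without overlap (41.2% against 20.1%). Since 51% of all genes were lower in HAB, the 9 of 17 lie near the background. The genes higher in the other 3 tissues but not in HAB were Nr4a1, Egr1, Cry2, Htr1b, Pim2 and a predicted gene, chosen after their values were seen.

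**Figure D3:**
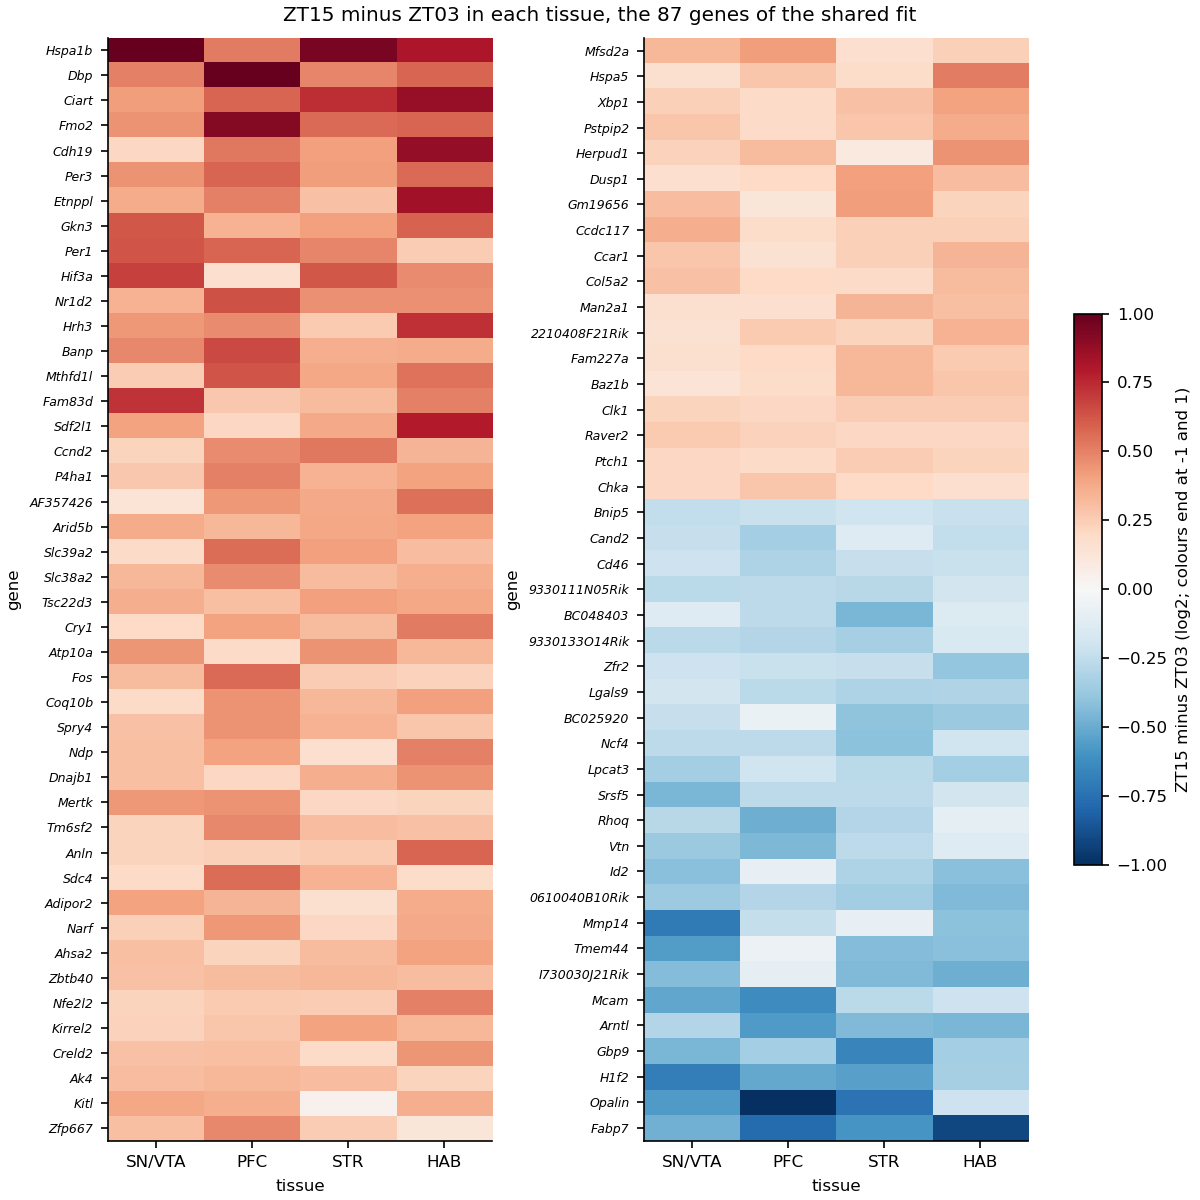
Difference between ZT15 and ZT03 (log2) of the 87 genes called in the shared fit, a row per gene sorted by the shared difference from the left panel's top to the right panel's bottom, and a column per tissue; red is higher at ZT15, blue lower, and values beyond 1 in size share the end colour. Each of the 62 higher genes is red and each of the 25 lower genes blue in all 4 tissues, while the depth of colour varies, as for Dbp in PFC (1.16) and Hspa1b in SN/VTA (1.06).

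The test between tissues called 0 of 17274 genes (0%; limma F test, smallest adjusted p = 0.617), and 1119 genes (6.48%) had an unadjusted p under 0.05. With 2 arrays a group this does not show that the tissues were alike. Leaving out HAB ZT03 replicate 1, which leaves the array of low choroid plexus and thalamus level alone in its group, raised the count to 25, among them Egr1 (adjusted p = 0.0382), Arc and Nr4a1 but also Sspo, Prkcd, Kl, Aqp1 and other genes outside the naming rule, and leaving out replicate 2 gave 2. Across all genes the differences of tissue pairs correlated weakly, at r = 0.06 (STR and HAB) to 0.15 (SN/VTA and STR), with genes not being independent replicates.

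Within single tissues the calls were few. PFC had 12 genes (0.0695%; 8 higher, 4 lower; 1638 at an unadjusted p under 0.05), among them Dbp at 1.16 ± 0.12 (adjusted p = 0.00421), Egr1 and Arc on the high side and Opalin at -1.11 ± 0.16 (0.0296), Fabp7 at -0.77 ± 0.10 (0.0296) and Mcam at -0.63 ± 0.10 (0.0426) on the low side. In SN/VTA the single gene (0.00579%) was Fam83d, a spindle protein gene, at 6.76 and 6.72 against 6.04 and 6.01 (0.72 ± 0.09, limma adjusted p = 0.0356). Fam83d was not particular to SN/VTA. It was among the 87 genes of the shared fit (0.45 ± 0.06, limma adjusted p = 0.00164), without overlap in any tissue. Its difference was 0.27 in PFC, 0.32 in STR and 0.50 in HAB, and the test between tissues gave an adjusted p of 0.711. In HAB the single gene was Fabp7 (0.00579%, with -0.91 ± 0.10 and limma adjusted p = 0.0153). STR had 0 (0%; limma, smallest adjusted p = 0.252, with 1463 genes at an unadjusted p under 0.05). With the replicate block PFC kept Dbp alone (adjusted p = 0.0437; Fabp7 0.135, Opalin and Mcam 0.177), and Fam83d in SN/VTA (0.230) and Fabp7 in HAB (0.167) did not pass. The PFC count fell to 0 without PFC ZT15 replicate 1 or PFC ZT03 replicate 2, was 2 to 6 without any other array except those of STR ZT03, and was 19 without either of these. The HAB count was 110 without HAB ZT03 replicate 1 (92 higher and 18 lower, 5 of them among the 87 genes), 14 without HAB ZT03 replicate 2, 3 or 4 without an array of STR ZT03 or PFC ZT03 and 0 without HAB ZT15 replicate 1. The SN/VTA count was 0 without any 1 array other than those of STR ZT15, and the STR count was 1 without STR ZT03 replicate 1.

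The cycles were also read apart. Neither cycle alone called a gene with limma (1569 and 1188 genes at an unadjusted p under 0.05). The 62 higher and 25 lower genes kept their sign in both cycles, and in the first and second cycle 62 and 62 of the higher and 24 and 23 of the lower ones had an unadjusted p under 0.05, though these arrays had chosen them. The median difference of the higher genes was 0.33 in the first cycle and 0.32 in the second.

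The other dark times were set against the light times 12 h before them in the same way, as ZT19 minus ZT07 and ZT23 minus ZT11. Their arrays are separate from the 16 here. Their own fits called 34 higher (0.197%) and 22 lower genes (0.127%) for ZT19 minus ZT07, and 19 higher (0.110%) and 44 lower (0.255%) for ZT23 minus ZT11. In both ZT15 minus ZT03 and ZT19 minus ZT07, 7 genes were called higher, 11.3% of the 62 and 20.6% of the 34. They were Hspa1b of the heat shock list, Hspa5, Sdf2l1 and Creld2 of the endoplasmic reticulum list, and Ahsa2, P4ha1 and Zbtb40, the last 3 named after their values were seen; with the replicate block Zbtb40 did not pass here (adjusted p = 0.108), nor did Hspa5 and Sdf2l1, as given above. Of the other called genes of those lists, Dnajb1 differed by 0.25 for ZT19 minus ZT07 (adjusted p = 0.0533), Xbp1 by 0.24 (0.141) and Herpud1 by 0.03 (0.904). Fabp7 was lower in both. Ciart and Dbp were higher at ZT15 than at ZT03 but lower at ZT19 than at ZT07.

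Several clock genes were called in opposite directions here and in ZT23 minus ZT11. Of the 62 higher genes 11 were called lower there (17.7% of the 62 and 25% of the 44), among them Dbp, Ciart, Per1, Per3, Nr1d2, Fmo2 and Hif3a, and none was called higher. Of the 25 lower genes Fabp7, Mmp14 and Arntl were called higher there. Cry1 differed by -0.00 there (adjusted p = 0.988). Ciart differed by 0.65 here, -0.65 for ZT19 minus ZT07 and -1.27 for ZT23 minus ZT11. For Arntl the values were -0.44, 0.27 and 0.68, and for Hspa1b 0.84, 0.85 and -0.03.

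**Figure D4:**
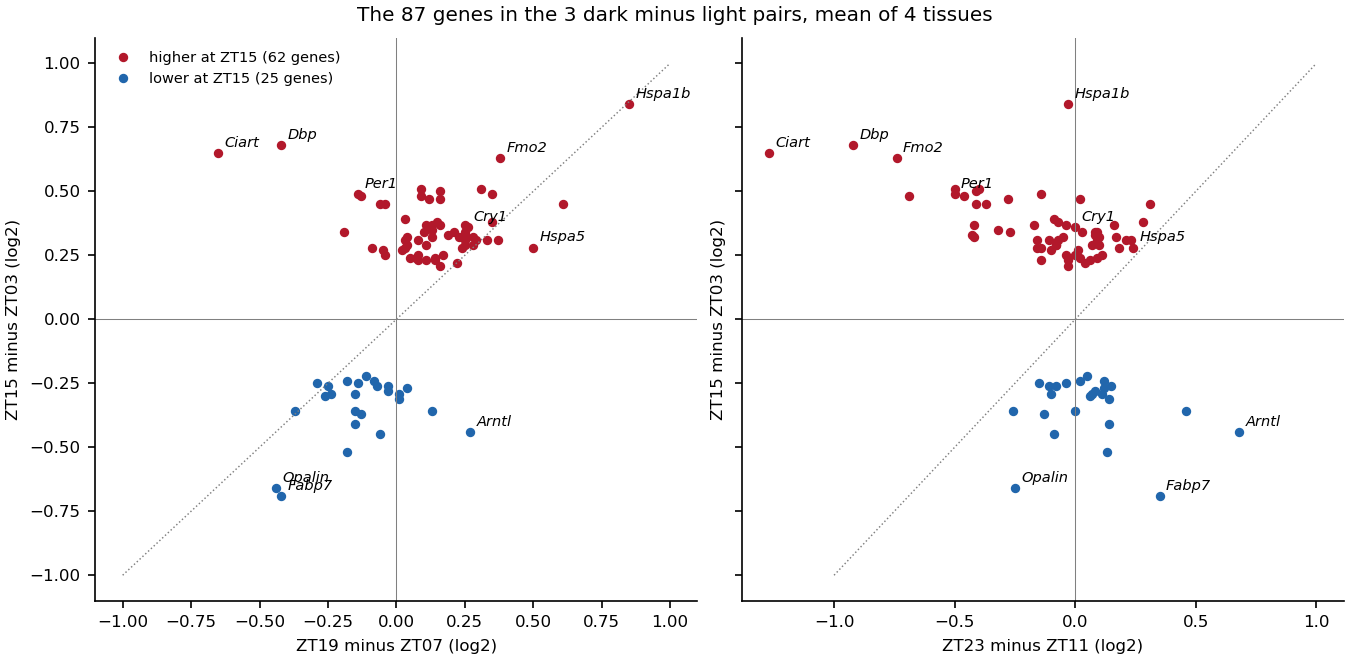
Difference between ZT15 and ZT03 (log2, vertical) of the 87 genes against their difference in ZT19 minus ZT07 (left) and ZT23 minus ZT11 (right), means of 4 tissues; a point is a gene, red for the 62 higher and blue for the 25 lower genes, and the dotted line marks equal values. Hspa1b lies near that line on the left (0.84 and 0.85), while Ciart and Dbp lie to the left of 0 in both panels.

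The difference between pairs was tested in a model of all 48 arrays. It called 16 genes (0.0926%; 11 with a higher and 5 with a lower value here; 10 of the 87) against ZT19 minus ZT07 and 262 genes (1.52%; 164 and 98; 47 of the 87) against ZT23 minus ZT11. These counts were 16 and 226 without HAB ZT03 replicate 2, 14 and 195 without SN/VTA ZT03 replicate 2, and 15 and 195 without STR ZT03 replicate 1. The arrays that chose the 87 genes also entered these tests, so a high share among the 87 was favoured in advance. Dbp exceeded its ZT19 minus ZT07 value by 1.10 ± 0.08 (adjusted p = 3.77e-10) and Ciart by 1.30 ± 0.10 (2.17e-09). Nr1d1, which did not pass here, was lower at ZT19 than at ZT07 (-0.83), and the difference of 0.76 ± 0.08 passed (adjusted p = 4.15e-07). Cirbp, outside the naming rule for this test and chosen after its values were seen, had the same form: -0.10 here, -0.57 and -0.45 in the other pairs, and a difference of 0.47 ± 0.07 from ZT19 minus ZT07 (adjusted p = 6.86e-04).

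Over the 6 times, 35 of the 62 higher genes had their highest mean at ZT15, 23 at ZT11 and 4 at ZT23. Of the 25 lower genes 18 were lowest at ZT15, 4 at ZT11, 2 at ZT19 and 1 at ZT23. ZT15 and ZT03 had entered the choice, so that these counts describe the genes only. Dbp averaged 8.73 at ZT03, 9.39 at ZT07, 9.64 at ZT11, 9.42 at ZT15, 8.97 at ZT19 and 8.72 at ZT23. Nr1d1 ran 9.44, 9.87, 9.79, 9.37, 9.04 and 9.06 in the same order, so that its level at ZT15 fell between its high and low times, as did that at ZT03. Fabp7 ran 10.38, 10.31, 9.82, 9.70, 9.89 and 10.17, with its lowest mean at ZT15.

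**Figure D5:**
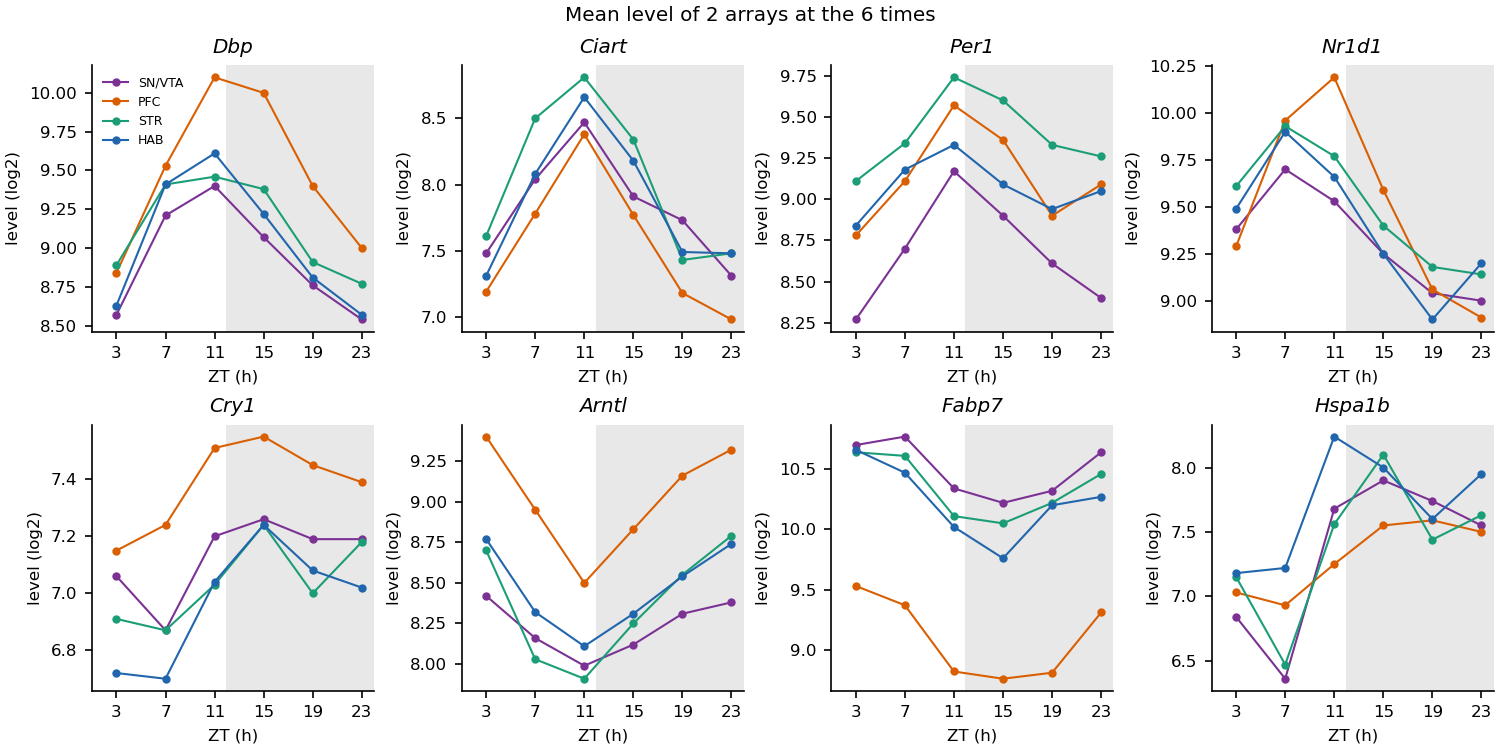
Mean level of 2 arrays (log2, axes that do not start at 0) of 8 genes at the 6 times (ZT in h), a line per tissue; grey marks darkness. Dbp, Ciart and Per1 peak at ZT11 and are still above their ZT03 level at ZT15 in each tissue, Arntl is lowest at ZT11, and Fabp7 is lowest at ZT15.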

How the data were processed

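The authors deposited log2 levels of 41345 probe sets on 48 arrays; the log2 unit was read from the values (1.09 to 13.65), and for background correction, normalization, summarisation and detection calls the method was not given in the sources used here. RNA of 3 mice was pooled per array, per the labels' protocols. Symbols came from GEO's platform annotation: 23521 rows had 1 symbol, 1814 several and 16010 none. RefSeq matched 23328 rows, the row with the highest mean stood for a gene, and genes at or above the 30th percentile of row means (5.05) were kept. The number of arrays limits the precision.

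Differences between ZT15 and ZT03 were fitted with limma 3.58.1 in R 4.3.3 on 16 arrays with tissue as a term (11 residual degrees of freedom), single tissues and the test between tissues in a model of 8 groups (8), and tests against other pairs in a model of 24 groups (24), with Benjamini-Hochberg adjustment over 17274 genes. Each ± is a standard error. Scripts were tested on simulated data. Replicate numbers mark the cycle of collection, per the titles in the labels, and so pair arrays; deviations of same-numbered arrays correlated at 0.172 (SN/VTA), -0.0568 (PFC), -0.0275 (STR) and -0.124 (HAB). Blocked values stand beside the main counts and the named genes whose call they changed.

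The genes named were the 10 largest called differences each way, the 3 largest each way called in a tissue, the core clock list, up to 4 members of the smallest p in every other list, and the 4 smallest p against each other pair; other names are marked, except in plots. Predicted genes were passed over. The comparison and the lists were chosen with earlier results of these data known. Summed levels are log2 of the sum of unlogged levels of a list.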

Additional observations from a re-analysis of the deposited data

Results flagged for a closer look

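The difference between ZT15 and ZT03 was tested against the other 12-h pairs, and results that passed are given here. Against ZT19 minus ZT07, 16 genes differed, and against ZT23 minus ZT11, 262 did (limma, 48 arrays, Benjamini-Hochberg adjusted p under 0.05). Compared with ZT19 minus ZT07, the log2 difference was greater by 0.62 for Per1, 0.76 for Nr1d1, 1.30 for Ciart and 1.10 for Dbp. Compared with ZT23 minus ZT11 it was greater by 1.92 for Ciart, 1.01 for Per3 and 1.61 for Dbp, and for Fabp7 the value was -1.04. As an example of the pairs themselves, Dbp was at 0.68 here, -0.42 for ZT19 minus ZT07 and -0.92 for ZT23 minus ZT11. Groups of 2 arrays are too small for a test of single outlying arrays.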

How the results depend on the processing

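Among the named called genes no alternative turned a sign. Counts of genes depended on the settings. The shared counts of 62 higher and 25 lower genes became 24 and 6 with all rows of the table, 102 and 51 in the 48-array model, 36 and 11 with the replicate block within tissue, 114 and 61 with a random collection block, 2 and 2 on collection means, 5 and 1 on collection means with all 6 times, and 0 and 0 in either cycle alone. They were 15 and 2 without SN/VTA, 29 (higher) without PFC, 22 and 7 without STR, and 34 (higher) without HAB. For the random collection block the consensus correlation was -0.0464. A negative value shrinks the errors of the time difference, so that setting is not a stricter test than the main fit. The lower count was 43 with a filter at the 50th percentile and 45 with array weights. Leaving out 1 array gave 43 to 58 higher and 15 to 27 lower genes, and the low ends came without SN/VTA ZT15 replicate 1; the lower count was 16 without SN/VTA ZT03 replicate 1 or HAB ZT03 replicate 1.

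For the test between tissues, no filter gave 1 gene and leaving out 1 array 0 to 25. SN/VTA had 0 genes with centred arrays, quantile normalization, no filter, all rows, either replicate block (within tissue or number alone), or without PFC or HAB, 4 at the stricter filter, 6 in the 48-array model, 20 with array weights, 10 from its own 12 arrays, and 0 to 1 when leaving out 1 array. PFC had 7 with quantile normalization, 3 with no filter, all rows or its own 12 arrays, 63 in the 48-array model, 1 with the replicate block within tissue, array weights or without SN/VTA, 4 with the replicate number alone or without STR, 6 without HAB, and 0 to 19 when leaving out 1 array. STR had 1 in the 48-array model and 0 to 1 when leaving out 1 array. HAB had 2 with quantile normalization or array weights, 10 at the stricter filter, 0 with all rows, the replicate block within tissue, its own 12 arrays or without SN/VTA, 8 in the 48-array model, 3 without PFC, and 0 to 110 when leaving out 1 array.

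Against ZT19 minus ZT07 the count was 9 without SN/VTA and 14 to 20 when leaving out 1 array. Against ZT23 minus ZT11 it was 147 with all rows, 84 without SN/VTA, 107 without PFC, 140 without STR and 181 to 304 when leaving out 1 array. The causes were not tested. With the replicate block within tissue those counts were 15 and 264. Of 34 named called genes, 11 lost the call with that block. Values near the filter level have no detection call, so whether such genes were above background is not known.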

Other observations

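Other called genes fell outside the naming rule and were chosen after their values were seen. Hrh3, the histamine receptor that limits transmitter release, was at 9.88 and 9.94 in SN/VTA, 10.07 and 9.99 in PFC, 10.38 and 10.35 in STR and 9.80 and 10.08 in HAB at ZT15, against 9.53 and 9.43, 9.64 and 9.48, 10.07 and 10.13, and 9.54 and 8.87 at ZT03. The times did not overlap in any tissue, and the difference was 0.47 ± 0.09 (limma adjusted p = 0.0154; 0.0651 with the replicate block). It was 0.73 in HAB and 0.26 to 0.47 in the other tissues. The lowest value, 8.87, came from HAB ZT03 replicate 2, the array of low choroid plexus and thalamus level.

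P4ha1, a subunit of collagen prolyl hydroxylase, differed by 0.27 in SN/VTA, 0.50 in PFC, 0.35 in STR and 0.40 in HAB, with a shared value of 0.38 ± 0.04 (limma adjusted p = 2.48e-04). It was also higher at ZT19 than at ZT07 (0.35). Slc38a2, a transporter of neutral amino acids, differed by 0.37 ± 0.04 (limma adjusted p = 6.99e-04), with 0.32 to 0.47 in each tissue. Arid5b, a chromatin-associated factor, differed by 0.37 ± 0.05, with 0.33 to 0.40 in each tissue, and Lpcat3, an enzyme of phospholipid remodelling, by -0.29 ± 0.04, with -0.34 to -0.20 (limma adjusted p = 0.00164 and 0.00281).

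Nfe2l2, which encodes the oxidative stress factor NRF2, differed by 0.31 ± 0.05 (limma adjusted p = 0.0154; 0.0657 with the replicate block), with 0.50 in HAB and 0.22 to 0.26 in the other tissues. Coq10b, which encodes a coenzyme Q-binding protein, was higher at ZT15 by 0.34 ± 0.05 (limma adjusted p = 0.00206) and lower at ZT23 than at ZT11 (-0.27).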
